A study of Mus musculus with 8 samples.

Results

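The genes described are those of MHC class II antigen presentation and of Langerhans cells: H2-Aa, H2-Ab1, H2-Eb1, H2-DMa, H2-DMb1, Cd74, Ciita, Cd207, Epcam and Cd86. They were listed by symbol, with no threshold on their values, and all 10 were found among the 18901 genes of the deposited table. Their RNA was measured in cheek skin injected with BNP (B-type natriuretic peptide), in 4 TBX20fl/fl;K14-Cre mice with 4 TBX20fl/fl littermates as controls, 1 library a mouse. All were 7-week-old females that received 10 µg of the peptide intradermally, were recorded for 30 min and were euthanised 5 h later. Both groups carried floxed Tbx20 alleles, and in the first the K14 promoter drove Cre in basal keratinocytes. No uninjected or vehicle-injected skin was analysed here. The K14-Cre line was on C57BL/6N and the floxed line on C57BL/6J, and a library was made from whole skin, so cells that carry the deletion were mixed with cells that do not.

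MHC class II molecules present peptides taken up from outside the cell to CD4+ T cells. An alpha and a beta chain (H2-Aa with H2-Ab1; H2-Eb1 is the beta chain of the E molecule) assemble on the invariant chain Cd74. In the endosome, proteases trim Cd74, and the heterodimer of H2-DMa and H2-DMb1 exchanges its last fragment for antigenic peptide. Ciita is the co-activator that switches these genes on, through a complex bound to conserved boxes in their promoters. Langerhans cells are the class II-positive antigen-presenting cells of the epidermis. Cd207 encodes langerin, the lectin of their Birbeck granules, Epcam is an adhesion molecule of Langerhans cells that epithelial cells also make, and Cd86 is a costimulatory ligand of T cells. Dermal dendritic cells, B cells and some macrophages also carry class II.

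The promoter windows of 3 class II members are shown because they carry the conserved boxes through which class II genes are known to be switched on. They are RefSeq sequences on GRCm38.p6, from 250 bases before to 50 bases after the annotated transcript start, on the strand of the gene. Capitals mark the Y box (TGATTGG, the binding site of NF-Y) and, where its exact letters occur, the core of the X box (AACNGATG, bound by RFX). H2-Aa is at chr17:34287774-34288073 on the minus strand, H2-Eb1 at chr17:34305617-34305916 and H2-DMb1 at chr17:34152941-34153240, both on the plus strand.
H2-Aa: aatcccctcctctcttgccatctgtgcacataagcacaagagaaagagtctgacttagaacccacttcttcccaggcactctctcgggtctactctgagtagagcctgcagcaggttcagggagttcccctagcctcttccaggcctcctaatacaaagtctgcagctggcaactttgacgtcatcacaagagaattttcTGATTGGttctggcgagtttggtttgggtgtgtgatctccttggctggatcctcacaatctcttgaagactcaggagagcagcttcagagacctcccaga
H2-Eb1: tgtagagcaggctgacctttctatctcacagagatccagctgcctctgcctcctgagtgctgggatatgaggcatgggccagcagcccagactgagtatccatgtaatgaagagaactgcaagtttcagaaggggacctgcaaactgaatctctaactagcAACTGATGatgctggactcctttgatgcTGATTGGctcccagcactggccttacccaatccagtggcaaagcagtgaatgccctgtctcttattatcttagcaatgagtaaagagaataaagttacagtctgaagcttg
H2-DMb1: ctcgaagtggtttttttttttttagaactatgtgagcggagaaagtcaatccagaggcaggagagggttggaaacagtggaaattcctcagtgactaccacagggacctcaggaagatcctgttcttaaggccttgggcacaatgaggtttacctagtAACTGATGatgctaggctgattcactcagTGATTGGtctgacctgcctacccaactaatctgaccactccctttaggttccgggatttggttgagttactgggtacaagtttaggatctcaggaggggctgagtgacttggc

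A window was given for 6 of the 10 members, and 3 of them held the Y box on the coding strand, starting 50 bases before the transcript start in H2-Aa, 61 in H2-Eb1 and 63 in H2-DMb1. The box was also present in all 4 other class II genes with a window (H2-DMb2, H2-Oa, H2-Ob and H2-Eb2). Searched on both strands, it occurs in 7.82% of 32851 promoter windows. The X box core was found in H2-Eb1, H2-DMb1, H2-DMb2 and H2-Eb2, and in 2.32% of all windows. Only these exact letters were searched for, so a window without a match could still hold a variant of the box. From the first base of the X box core to the first base of the Y box there were 28 bases in H2-Eb1 and H2-Eb2 and 29 in H2-DMb1 and H2-DMb2, and the boxes did not overlap. The letters of neither box were found in the windows of Cd207, Epcam and H2-DMa. The 2 windows of H2-DMa start at 34122582 and 34125268, inside its annotated span of 34119693 to 34139101. Whether they cover its class II promoter was not tested. The T-box core AGGTGTG was found in 2 members, Epcam and the second of 2 windows of H2-DMa, against 5.84% of all windows. The letters searched were chosen after these sequences had been read, and no binding was measured.

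The total of the estimated read counts was 16056282 to 19880654 per mouse, at which 3 counts, taken as the floor of detection, correspond to 0.151 to 0.187 CPM (counts scaled to a common total; counting error only). Tbx20 itself had 0 to 3 counts in every mouse of either genotype, too few at this depth to show its deletion. TBX20fl/fl replicate 2 stood apart: its scaling factor by the trimmed mean of M-values (TMM) was 0.735 against 1.01 to 1.07 in the other mice. The fifth of genes shortest in transcript length lay on average 1.01 (log2 CPM) above the median of the mice there, and the fifth that was longest averaged -1.18. For the members, fits with and without that mouse and with a trend with transcript length removed from every mouse are therefore set side by side. Epidermal genes summed to an FPKM (a level per transcript length and library total) of 3012 to 4540 in every mouse, and the 6 B cell markers to 0.25 to 1.46, with each marker below 1 FPKM. Skeletal muscle genes summed to 10112 to 18518, so muscle was sampled with the skin.

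Of the 10 members, 0 passed edgeR's quasi-likelihood test at 0.05 after Benjamini-Hochberg adjustment over the 17124 genes tested (adjusted p = 0.498 to 0.845), and 0% of all those genes passed, with 1431 below 0.05 before adjustment. In DESeq2's Wald test 10 genes passed (0.0584% of genes tested), and 0 of them were members. At an unadjusted p under 0.05 in edgeR's test, 3 members had a negative fold change (lower with K14-Cre: H2-Aa, Cd207 and Cd86), against 5.91% of all genes lower and 8.36% in either direction. Fitted log2 fold changes were below 0 for 9 of 10 members with TMM scaling, with Ciita above 0, against 47.5% of all genes. Cd74, Epcam and Ciita changed sign in other fits, given below for each. The median log2 fold change of the members was -0.49, beside 0.03 over all genes tested. Without TBX20fl/fl replicate 2 it was -0.25, beside 0.01 over all genes, and 1 member was lower at an unadjusted p under 0.05 (Cd86, against 4.50% of genes). With the trend with transcript length removed it was -0.18, beside 0.02 over all genes, and again Cd86 alone was lower at that threshold (5.12% of genes). With the replicate number as a block, Cd86 was also the only one (6.54% of genes). In FPKM, 0 of 10 members separated the genotypes completely, beside 1.87% of all genes with the TBX20fl/fl;K14-Cre group wholly lower and 5.19% with it wholly higher. In a bulk sample, fewer cells of a type and less RNA per cell cannot be told apart.

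**Figure D1:**
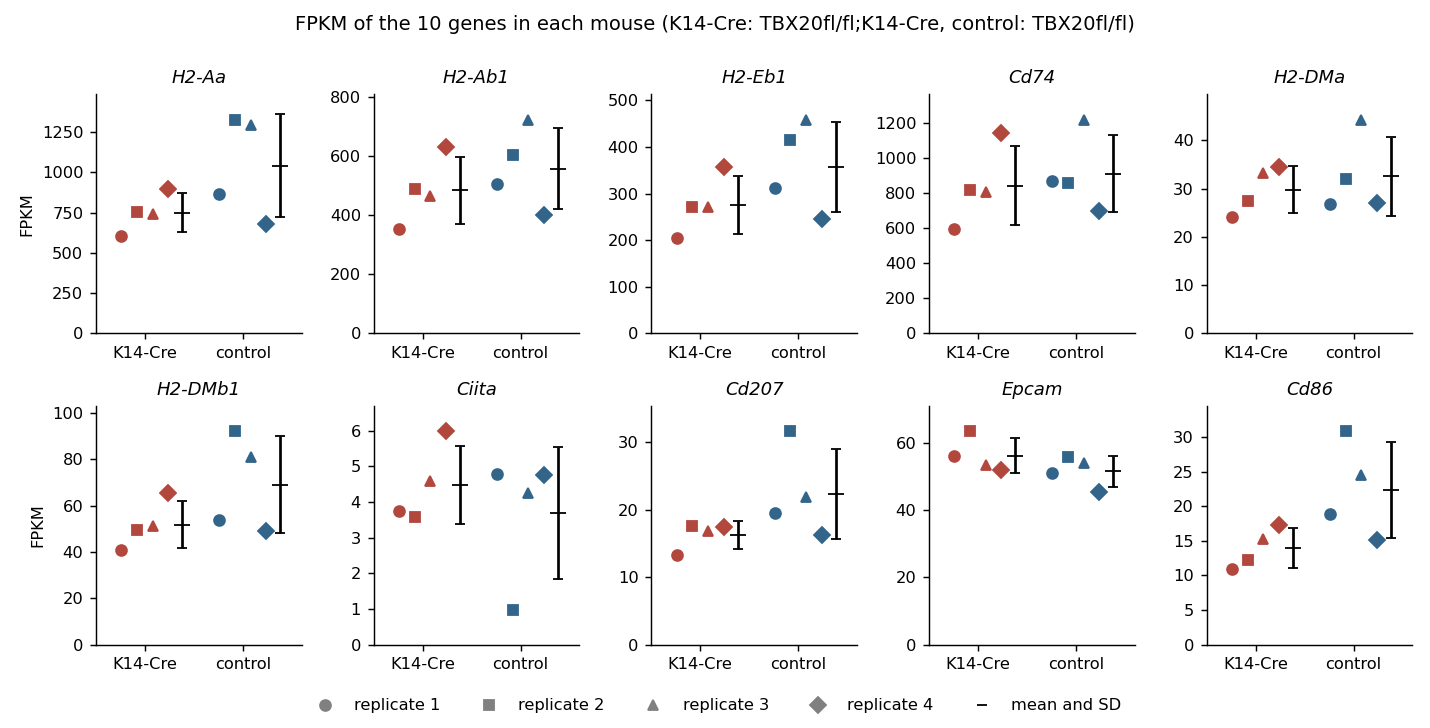
FPKM of each of the 10 genes (vertical axis, from 0, a scale per panel) in the 4 TBX20fl/fl;K14-Cre mice (red, labelled K14-Cre) and the 4 TBX20fl/fl mice (blue, labelled control), with 1 symbol per replicate number and the mean and SD in black. The groups overlap in every panel, replicate 4 is the lowest control for 8 of the 10 genes, and control replicate 2 is at 0.96 for Ciita against 4.24 to 4.80 in the other controls.

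The levels of the members spanned a wide range and kept nearly the same order in every mouse. For 5 of them (H2-Aa, H2-Ab1, H2-Eb1, H2-DMa and H2-DMb1) the deposited table gives a start on a scaffold and an end on chromosome 17. Whether their reads were counted on both sequences is not given in the sources used here, and their counts, FPKM and places in the order of levels could depend on it. The same holds for H2-DMb2, H2-Ob, H2-Oa and H2-Eb2. H2-Aa and Cd74 were the most abundant, with a mean FPKM over the 8 mice of 896 and 876, and each was above the other in 4 of 8 mice. H2-Ab1 (521) and H2-Eb1 (317) followed, each in this order in 8 of 8 mice. H2-DMb1 (60.4) was above Epcam (53.8) in 5 of 8 mice only, so these neighbours did not differ beyond their spread. H2-DMa was at 31.2, Cd207 at 19.3 and Cd86 at 18.2. Cd207 was above Cd86 in 7 of 8 mice, and Ciita, at 4.09, was the lowest in all 8. Every member was well above the floor of 3 counts in every mouse, from 115 counts (Ciita in 1 mouse) to 28198 (Cd74).

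H2-Aa, the alpha chain of the A molecule, lies on the minus strand of chromosome 17 from 34282744 to 34287823 (GRCm38.p6, as for all positions below). Its FPKM was 605, 757, 739 and 899 in TBX20fl/fl;K14-Cre replicates 1 to 4. In TBX20fl/fl replicates 1 to 4 it was 868, 1326, 1295 and 679.5. Replicates 2 and 3 of the controls were above every other mouse, and control replicate 4 was below 3 of the 4 TBX20fl/fl;K14-Cre mice, so the groups overlapped. The means were 750.0 ± 120.2 (SD, n = 4) and 1042 ± 319.5 (SD, n = 4), and the two-sided exact permutation test over the 70 assignments of the mice gave p = 0.2, where 0.0286 is the smallest possible. From counts, H2-Aa gave a log2 fold change of -0.70 (SE 0.31, adjusted p = 0.498 and unadjusted p = 0.0499 in edgeR's test). It was -0.39 without TBX20fl/fl replicate 2 and -0.23 with the length trend removed.

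H2-Ab1, its beta chain partner (chromosome 17, 34263227 to 34269418), ran from an FPKM of 353 to 629.9 in TBX20fl/fl;K14-Cre skin and from 400.2 to 722 in TBX20fl/fl skin. The ranges overlapped from 400.2 to 629.9, with TBX20fl/fl;K14-Cre replicate 1 below every control and control replicate 3 above every TBX20fl/fl;K14-Cre mouse (484 ± 114 against 558 ± 138, SD, n = 4 each, exact permutation p = 0.4). From counts, H2-Ab1 gave a log2 fold change of -0.40 (standard error 0.27, adjusted p = 0.511 in edgeR's test). Without TBX20fl/fl replicate 2 it was -0.22, and with the length trend removed -0.01. Within a mouse, the ratio of H2-Ab1 to H2-Aa in FPKM was 0.584 to 0.701 in TBX20fl/fl;K14-Cre mice against 0.558 to 0.589 in 3 controls. In control replicate 2 it was 0.456, the lowest of the 8.

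H2-Eb1 (chromosome 17, 34305867 to 34316674) encodes the beta chain of the E molecule. Its FPKM was 204, 272, 271 and 357 in TBX20fl/fl;K14-Cre replicates 1 to 4, and 312, 414, 458 and 245 in TBX20fl/fl replicates 1 to 4. As for H2-Aa, control replicates 2 and 3 were the highest of the 8 mice and control replicate 4 lay among the TBX20fl/fl;K14-Cre mice. H2-Eb1 gave a log2 fold change of -0.58 (SE 0.29, adjusted p = 0.498 and unadjusted p = 0.0749 in edgeR's test; exact permutation p = 0.229 on FPKM, n = 4 each). It was -0.35 without control replicate 2 and -0.32 with the length trend removed. The alpha chain of the E molecule was looked for by its symbol, H2-Ea, and was not found in the deposited table.

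Cd74, the invariant chain (chromosome 18, 60803849 to 60812652), had an FPKM of 597, 820.1, 805 and 1142 in TBX20fl/fl;K14-Cre replicates 1 to 4. In TBX20fl/fl replicates 1 to 4 it was 867, 860.3, 1218 and 698. TBX20fl/fl;K14-Cre replicate 4 was the second highest of all 8 mice, and the means differed by less than the SD of either group (841 ± 225 against 911 ± 219, SD, n = 4 each, exact permutation p = 0.629). Cd74 gave a log2 fold change of -0.29 (standard error 0.26, adjusted p = 0.556 in edgeR's test), was -0.19 without control replicate 2 and turned to 0.05 when the length trend was removed. Its ratio to H2-Aa was 0.649 in control replicate 2, against 0.940 to 1.27 in the other 7 mice.

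H2-DMb1 (chromosome 17, 34153191 to 34160229), the beta chain of the peptide exchanger, was at an FPKM of 41.0, 49.4, 51.2 and 65.55 in TBX20fl/fl;K14-Cre replicates 1 to 4. It was at 53.8, 92.2, 81.0 and 48.9 in TBX20fl/fl replicates 1 to 4, where replicates 2 and 3 again exceeded every other mouse. H2-DMb1 gave a log2 fold change of -0.64 (standard error 0.31, adjusted p = 0.498 in edgeR's test), -0.29 without control replicate 2 and -0.22 with the length trend removed. Of the 50-base stretches of its annotated transcripts, 22.6% also occur in H2-DMb2, so reads could have been split between these neighbours. The share that occurs in any other gene was 8.43% for H2-DMa (all in Brd2), 1.46% for Ciita (all in Dexi) and 0.514% for H2-Aa (in several unrelated genes), and 0 for the other members. These transcripts hold each class II gene at 1 locus, so copies on a scaffold do not enter the shares. H2-DMa, the alpha chain (34119693 to 34139101), differed less, at 24.0 to 34.4 against 26.9 to 44.25. H2-DMa gave a log2 fold change of -0.30 (SE 0.22, adjusted p = 0.520 in edgeR's test), -0.18 without control replicate 2 and -0.07 with the length trend removed. In 3 of 4 same-numbered pairs of mice, both were lower in the TBX20fl/fl;K14-Cre mouse.

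Ciita, the class II transactivator (chromosome 16, 10480014 to 10531064), had a pattern over the mice unlike that of the class II chains. Its FPKM was 3.75, 3.58, 4.60 and 5.99 in TBX20fl/fl;K14-Cre replicates 1 to 4, and 4.80, 0.96, 4.24 and 4.77 in TBX20fl/fl replicates 1 to 4. Control replicate 2, which was the highest of all mice for 4 members, was the lowest for Ciita with 115 counts. The other 3 controls lay within the range of the TBX20fl/fl;K14-Cre mice. Ciita gave a log2 fold change of 0.14 (standard error 0.33, adjusted p = 0.810 in edgeR's test) with all mice and -0.12 without control replicate 2. It was -0.14 with the length trend removed and -0.02 without TBX20fl/fl;K14-Cre replicate 4. The 95% interval of the difference, -0.60 to 0.89, covers changes of either sign.

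Transcript lengths, worked out from counts and FPKM together, came to 6463 bases for Ciita and 1079 to 2509 for the other members. In control replicate 2 the trend with transcript length amounted to 1.04 for H2-Aa, 0.99 for H2-Ab1 and -1.20 for Ciita on the log2 scale, relative to the mean of the other 7 mice. The measured differences of that mouse from the same mean were 1.22, 0.79 and -1.504. For Cd86 the trend was 0.06 and the measured difference 1.47. For Cd207 they were 0.71 and 1.37. Cd86 was thus the member whose high value in this mouse lay farthest from the trend. RNA quality was not measured in the files, and its part in these differences was not tested.

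**Figure D2:**
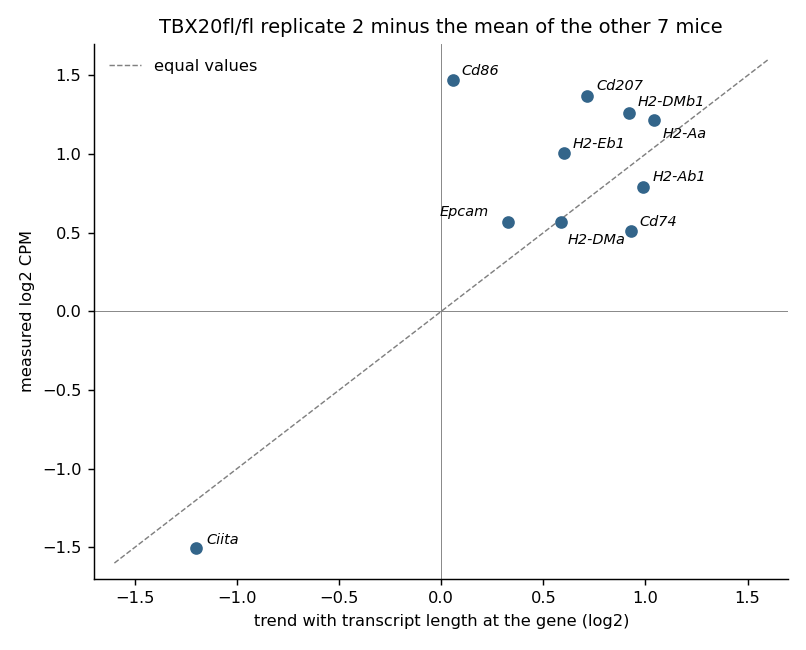
For each of the 10 genes, the log2 CPM of TBX20fl/fl replicate 2 minus the mean of the other 7 mice (vertical axis) against the same difference of the trend with transcript length fitted across genes (horizontal axis, log2), with a dashed line where both are equal. Ciita sits at -1.20 and -1.504, H2-Aa at 1.04 and 1.22, and Cd86 at 0.06 and 1.47, far above the line.

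Cd86 (minus strand of chromosome 16, 36568956 to 36666158) was the member with the largest difference. Its FPKM was 10.95, 12.2, 15.3 and 17.3 in TBX20fl/fl;K14-Cre replicates 1 to 4. In TBX20fl/fl replicates 1 to 4 it was 18.9, 30.9, 24.6 and 15.1. Control replicates 1, 2 and 3 exceeded every TBX20fl/fl;K14-Cre mouse, and control replicate 4 lay between TBX20fl/fl;K14-Cre replicates 2 and 3. The means were 13.96 ± 2.91 (SD, n = 4) and 22.4 ± 6.89 (SD, n = 4; exact permutation p = 0.0857). Cd86 gave a log2 fold change of -0.92 (SE 0.32, 95% interval -1.63 to -0.20, adjusted p = 0.498 and unadjusted p = 0.0171 in edgeR's test). It was -0.54 without control replicate 2 (unadjusted p = 0.0248, adjusted p = 0.638 in edgeR's test) and -0.88 with the length trend removed (unadjusted p = 0.0150, adjusted p = 0.535). Leaving out each mouse in turn gave -1.10 to -0.54. No 50-base stretch of its transcripts occurs in another gene.

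Cd207 (minus strand of chromosome 6, 83671207 to 83677857) had an FPKM of 13.25, 17.6, 16.9 and 17.5 in TBX20fl/fl;K14-Cre replicates 1 to 4, a narrow range with only replicate 1 apart. In TBX20fl/fl replicates 1 to 4 it was 19.6, 31.7, 21.9 and 16.2, so control replicate 4 again fell among the TBX20fl/fl;K14-Cre mice. The means were 16.3 ± 2.07 (SD, n = 4) and 22.3 ± 6.65 (SD, n = 4; exact permutation p = 0.114). Cd207 gave a log2 fold change of -0.69 (SE 0.30, adjusted p = 0.498 and unadjusted p = 0.0458 in edgeR's test). Without control replicate 2 it was -0.29 and with the length trend removed -0.35. Cd207 and H2-Aa kept a like proportion, their FPKM ratio being 0.0194 to 0.0233 in TBX20fl/fl;K14-Cre mice against 0.0169 to 0.0239 in controls.

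Epcam (chromosome 17, 87635979 to 87651127) varied least. Its FPKM was 55.9, 63.45, 53.4 and 51.85 in TBX20fl/fl;K14-Cre replicates 1 to 4 and 51.1, 55.65, 53.95 and 45.2 in TBX20fl/fl replicates 1 to 4, a span of 1.22-fold and 1.23-fold between the highest and the lowest mouse. The means in FPKM were 56.1 ± 5.15 and 51.5 ± 4.57 (SD, n = 4 each, exact permutation p = 0.257), whereas the log2 fold change from TMM-scaled counts was -0.07 (standard error 0.19, adjusted p = 0.845 in edgeR's test), so the sign depends on the scaling. It was 0.12 without control replicate 2 and 0.07 with the length trend removed. The highest Epcam value belonged to TBX20fl/fl;K14-Cre replicate 2, in which hair follicle genes summed to an FPKM of 2084 against 538 to 715 in the other mice, and the part of those cells in the Epcam level was not tested. The ratio of Cd207 to Epcam was 0.237, 0.278, 0.316 and 0.337 in TBX20fl/fl;K14-Cre replicates 1 to 4 and 0.383, 0.569, 0.406 and 0.358 in TBX20fl/fl replicates 1 to 4. The groups did not overlap in this ratio, with or without control replicate 2. It was 1 of 7 ratios between members that were computed, and no test was made of it. How often ratios between other genes separate the groups was not computed.

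**Figure D3:**
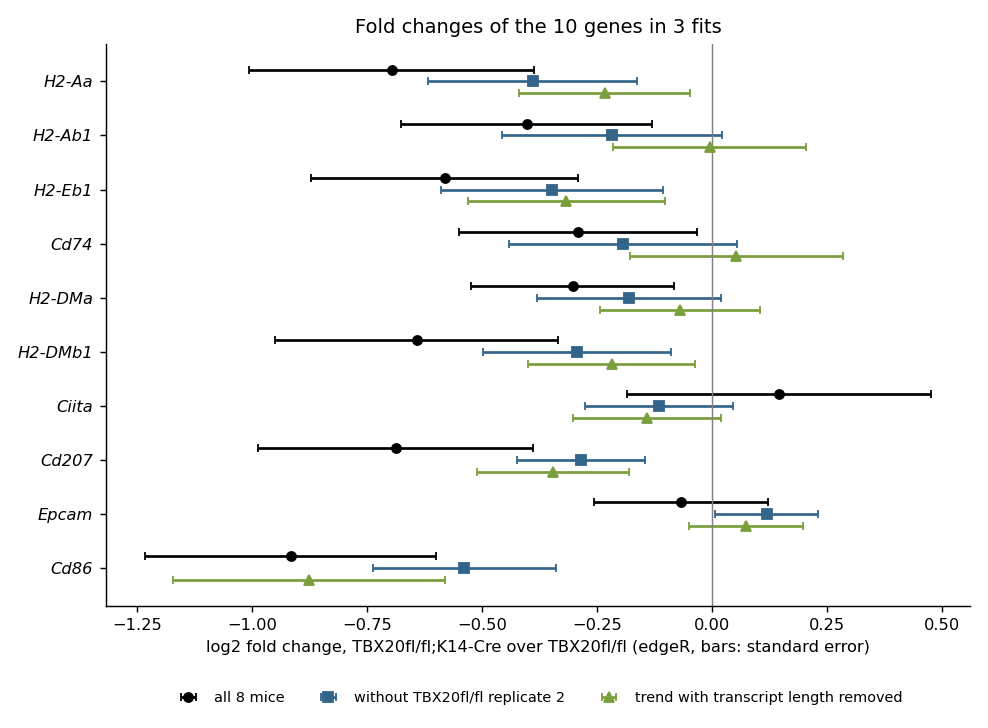
Log2 fold changes of the 10 genes (horizontal axis, TBX20fl/fl;K14-Cre over TBX20fl/fl, edgeR, bars: standard error) with all 8 mice (black circles), without TBX20fl/fl replicate 2 (blue squares) and with the trend with transcript length removed (green triangles). Cd86 is at -0.92, -0.54 and -0.88, H2-Aa is at -0.70, -0.39 and -0.23, Ciita changes sign from 0.14 to -0.12 and -0.14, and Cd74 and Epcam are at 0.05 and 0.07 once the trend is removed.

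The members shared an order of mice. TBX20fl/fl;K14-Cre replicate 1 was the lowest of its group for 8 of 10 members and replicate 4 the highest for 8. Among the controls replicate 4 was the lowest for 8 members, and replicate 2 (5 members) or replicate 3 (4 members) the highest. The root mean square difference over the 8 mice between a gene's centred log2 CPM and the mean of H2-Aa, H2-Ab1, H2-Eb1 and Cd74 (without the gene itself) was 0.06 for H2-Ab1, 0.07 for H2-Eb1, 0.14 for H2-DMb1, 0.17 for H2-Aa, 0.18 for H2-DMa and 0.18 for Cd74. It was 0.23 for Cd207, 0.25 for Cd86, 0.35 for Epcam and 0.84 for Ciita. Without control replicate 2 these values were, in the same order, 0.05, 0.04, 0.07, 0.10, 0.16, 0.08, 0.18, 0.17, 0.36 and 0.31, so Epcam was then the member least like the class II chains. Among 13138 genes outside all lists that averaged 1 FPKM or more, the nearest to the mean of those 4 genes were Bco2 (0.10), Ifi203 (0.10) and Gem (0.12), where a flat gene would lie at 0.43. The nearest to Cd207 were Idnk (0.06), Nnmt (0.07) and Malsu1 (0.09), where a flat gene would lie at 0.50.

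**Figure D4:**
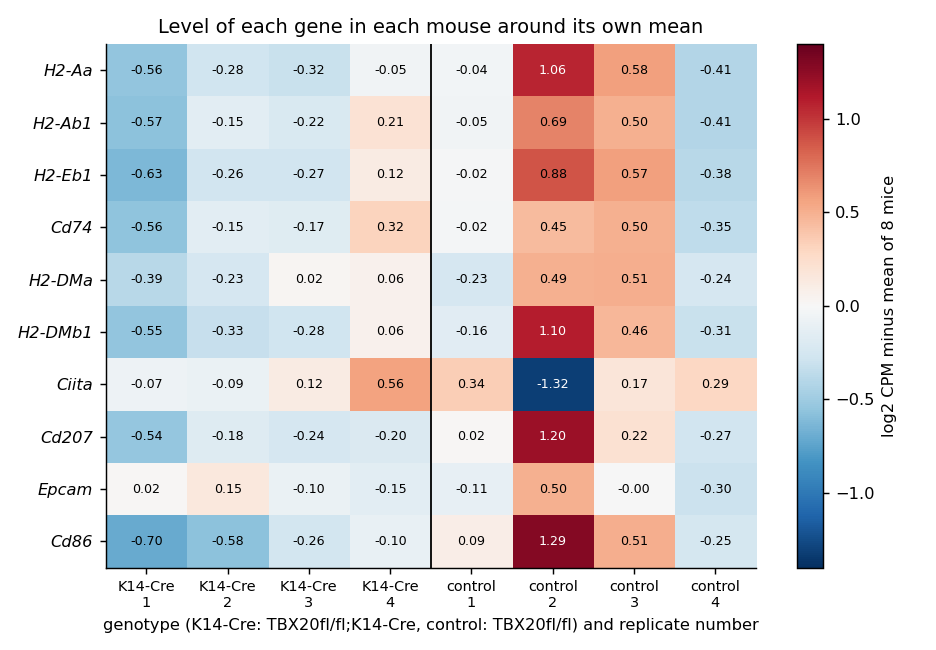
Log2 CPM of each of the 10 genes (rows) in each mouse (columns, by genotype and replicate number, with K14-Cre for TBX20fl/fl;K14-Cre and control for TBX20fl/fl) minus the mean of the 8 mice, red above and blue below that mean. Control replicate 2 is at 1.06 for H2-Aa, 1.29 for Cd86 and -1.32 for Ciita, TBX20fl/fl;K14-Cre replicate 1 is below the mean for 9 of the 10 genes, and Epcam stays within 0.50 of its mean in every mouse.

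Of 19 further genes of the class II pathway that were tested, 0 passed the adjusted threshold, and 4 were lower at an unadjusted p under 0.05 in edgeR's test (5.91% of all genes), with 0 higher. Without control replicate 2, 3 were lower (4.50% of all genes), and with the length trend removed 3 were lower (5.12% of all genes). The median log2 fold change of the list was -0.34, and it was -0.17 without control replicate 2 and -0.18 with the length trend removed. H2-DMb2, the second DM beta chain, was at an FPKM of 5.56, 5.89, 7.72 and 7.63 in TBX20fl/fl;K14-Cre replicates 1 to 4 and 7.86, 8.04, 11.42 and 8.33 in TBX20fl/fl replicates 1 to 4. It was the only gene of the list without overlap between the groups (1.87% of all genes; exact permutation p = 0.0286, the smallest possible), and its log2 fold change was -0.58 (adjusted p = 0.498 in edgeR's test), -0.51 without control replicate 2 and -0.29 with the length trend removed. Of its 50-base stretches 25.9% occur in other genes, and the doubt about counting on a scaffold covers H2-DMb2 and H2-Ob too. Ctss, which encodes the protease cathepsin S that trims Cd74, had an FPKM of 156 ± 29.6 against 247 ± 60.5 (SD, n = 4 each; exact permutation p = 0.0857). Its log2 fold change was -0.89 (adjusted p = 0.498 in edgeR's test), -0.59 without control replicate 2 and -0.51 with the length trend removed. March1, whose ubiquitin ligase sends class II and CD86 proteins to degradation, was at -0.48, and H2-Ob, a chain of the DM inhibitor, at -0.63, both with the same adjusted p in edgeR's test. Without control replicate 2 and with the length trend removed, March1 gave -0.36 and -0.78, and H2-Ob -0.41 and -0.61. The subunits that bind the promoter boxes were close to 0 without control replicate 2, at 0.06 for Rfx5, -0.16 for Rfxap, -0.01 for Rfxank, 0.00 for Nfya, -0.08 for Nfyb and -0.04 for Nfyc. With all mice these ran from -0.34 (Nfyb) to 0.26 (Rfx5), and with the length trend removed from -0.30 (Nfyb) to 0.10 (Rfx5).

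Among 24 further genes of Langerhans and dendritic cells, 0 passed the adjusted threshold, 4 were lower at an unadjusted p under 0.05 (5.91% of all genes) and 0 higher. Without control replicate 2, 2 were lower (4.50% of all genes), and with the length trend removed 3 were lower (5.12% of all genes). Fitted log2 fold changes were below 0 for 12 genes and above 0 for 12, with a median of 0.02 beside 0.03 over all genes. The median was -0.08 without control replicate 2 (0.01 over all genes) and -0.04 with the length trend removed (0.02 over all genes). Cd40, the receptor through which T cells license antigen-presenting cells, was at an FPKM of 5.46, 5.80, 7.51 and 8.78 in TBX20fl/fl;K14-Cre replicates 1 to 4. In TBX20fl/fl replicates 1 to 4 it was 11.4, 15.9, 13.9 and 8.51, so only control replicate 4 overlapped the other group (exact permutation p = 0.0571, n = 4 each). Cd40 gave a log2 fold change of -1.08 (SE 0.30, adjusted p = 0.498 and unadjusted p = 0.0053 in edgeR's test), -0.77 without control replicate 2 and -0.80 with the length trend removed. Cd80, the other ligand of the CD28 receptor beside Cd86, was at -0.70, Id2, a regulator that Langerhans cells need, at -0.94, and Spi1, which encodes the myeloid factor PU.1, at -0.47 (adjusted p = 0.498 for each in edgeR's test). Without control replicate 2 these were -0.66, -0.41 and -0.41, and Id2 was at an FPKM of 168 in that mouse against 64.10 to 109.97 in the other controls. With the length trend removed they were -0.56, -0.47 and -0.21. Il34, the keratinocyte cytokine that sustains Langerhans cells, was at 0.03, and Csf1r, its receptor, at 0.39 (adjusted p = 0.922 and 0.520 in edgeR's test). They were at 0.11 and 0.23 without control replicate 2, and at 0.24 and 0.25 with the length trend removed. Ly75, at an FPKM of 0.31 to 0.73, and Ccr7, at 0.53 to 1.26, were the weakest of the list together with Ccr6.

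Markers of other immune cells, and genes of the interferon-gamma response and of class I presentation, gave the following values, to be read beside 5.91% of all genes lower at an unadjusted p under 0.05. Of 10 dermal dendritic markers 0 were below the unadjusted threshold in edgeR's test, and their FPKM ranged in sum from 172 to 233 in TBX20fl/fl;K14-Cre mice, against 174 to 266 in TBX20fl/fl mice. Of 9 macrophage markers 1 was lower and 1 higher, with sums of 542 to 830.1 and 547 to 849. Of 6 T cell markers 1 was lower. In both the macrophage and the T cell list, 0 were lower without control replicate 2 and 0 with the length trend removed. The macrophage gene that was higher, Mertk, a receptor for the uptake of dying cells (named after its values were seen), was at an FPKM of 4.26 to 5.71 against 1.53 to 3.72, without overlap (5.19% of all genes wholly higher). Its log2 fold change was 0.58 (adjusted p = 0.498 in edgeR's test), 0.43 without control replicate 2 and 0.37 with the length trend removed. The 8 neutrophil and monocyte genes held 6 that were lower, with a median log2 fold change of -1.32 and sums of 145 to 349.7 against 329.9 to 1104, and 6 were lower without control replicate 2 and 7 with the length trend removed. Of 9 interferon-gamma response genes 4 were lower, all 9 fitted values were below 0 and the median was -0.60, with sums of 310.4 to 553 against 373 to 768, and 2 of them were lower without control replicate 2 (4.50% of all genes). Without that mouse the median was -0.41, and not all 9 fitted values were below 0. With the length trend removed 4 were lower (5.12% of all genes), with a median of -0.62. Of 9 genes of class I presentation 3 were lower, with 6 fitted values below 0 and 3 above, and 4 were lower without control replicate 2 and 3 with the length trend removed. B2m, the light chain of class I (named after its values were seen), was the only one of the 9 whose groups did not overlap, beside 1.87% of all genes wholly lower, at an FPKM of 1966 to 2282 against 2548 to 5520. Its log2 fold change was -1.03 (adjusted p = 0.498 in edgeR's test), -0.57 without control replicate 2 and -0.43 with the length trend removed. FPKM sums of the class I list, of which B2m made the largest part, were 3396 to 3939 against 4133 to 6975, without overlap. After adjustment over all genes, none of the lists had a gene under 0.05 in edgeR's test, the smallest adjusted p being 0.498. The part of these cells and programmes in the levels of the class II members was not tested.

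**Figure D5:**
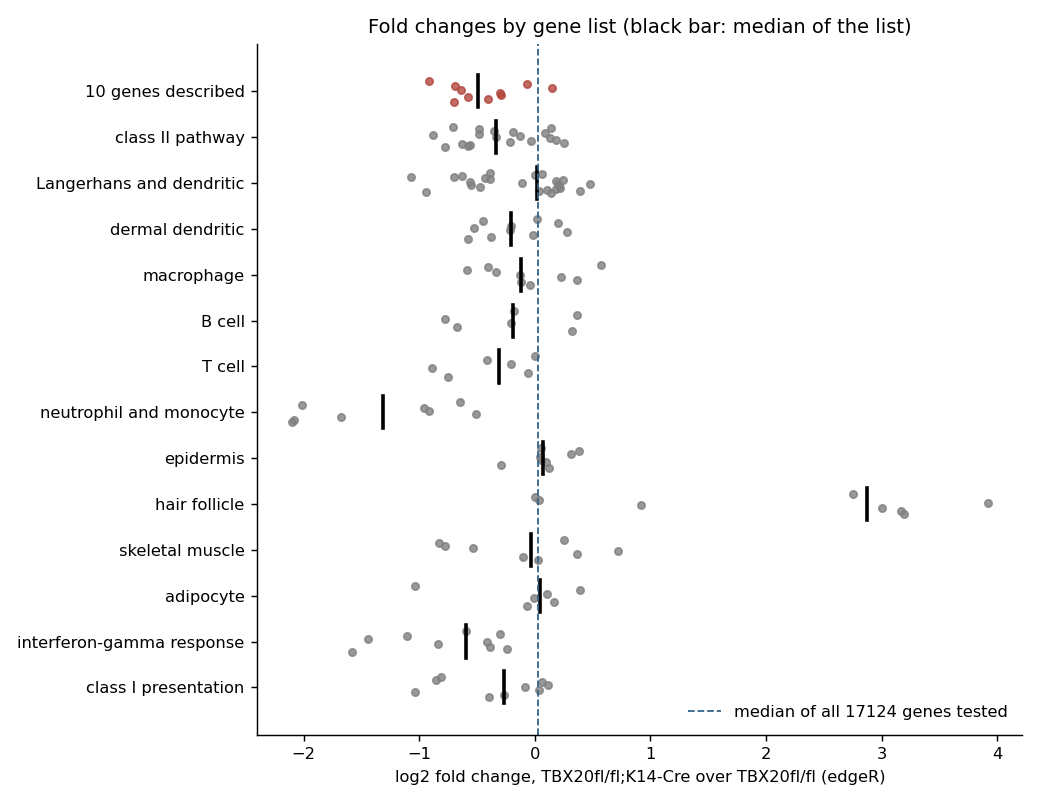
Log2 fold change of each gene (points; horizontal axis, TBX20fl/fl;K14-Cre over TBX20fl/fl, edgeR) by gene list (rows), with the median of each list as a black bar and the median of all 17124 genes tested, 0.03, as a dashed line. The 10 genes described (red) have a median of -0.49, the Langerhans and dendritic list 0.02, the neutrophil and monocyte genes -1.32 and the interferon-gamma response genes -0.60. Without TBX20fl/fl replicate 2 these medians are, in the same order, -0.25, -0.08, -1.20 and -0.41.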

How the data were processed

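Cheek skin injected with BNP, from 4 mice of each genotype, was sequenced by the authors (poly(A) RNA, random hexamer priming, single-end reads of 50 bases). Reads were filtered with SOAPnuke and aligned with HISAT; its version and the counting program are not given in the sources used here. The authors deposited estimated counts (expected counts), not normalised, of which 69.0% of those above 0 were not whole numbers (tolerance 0.001), and FPKM values made with the Dr. Tom platform. Deposited columns of TPM, normalised counts, group means and the authors' own comparisons were not used. Strand use in counting is not stated.

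Counts were rounded, genes reaching 10 counts in all 8 mice together kept, scaled by TMM and compared with edgeR 4.0.16 (quasi-likelihood, Benjamini-Hochberg adjustment over all genes, R 4.3.3). For single genes, group means of FPKM were compared by exact permutation, two-sided, over all 70 assignments (Python 3.11.15). Alternatives used limma 3.58.1, DESeq2 1.42.0, a muscle covariate, the replicate block, a lowess trend of log2 CPM with transcript length as an offset (genes averaging 50 counts or more), and leaving out each mouse. Same-numbered mice of the 2 groups deviated together across genes (r = 0.323, 0.275, 0.176 and 0.108 for numbers 1 to 4). Against mice of other numbers the mean r was -0.091, -0.132, -0.040 and -0.006. The number was therefore used as a block in alternative fits, while the main fit and the permutation tests were not paired. The numbers come from the sample titles and belong to different animals. No batch or date is given in the labels. Replicates are separate mice.

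The members and gene lists were chosen with earlier results of these data known. Named genes are the members, genes of the class II and Langerhans lists, and the 3 nearest genes to each of 2 patterns; B2m and Mertk, of other lists, were named after their values were seen. For 5 class II members the deposited table mixes the start on a scaffold with the end on chromosome 17, so RefSeq GRCm38.p6 positions are given. Shared sequence was counted on GENCODE transcripts.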

Additional observations from a re-analysis of the deposited data

Results flagged for a closer look

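Among 106 groups of 4 FPKM values (53 genes in 2 genotypes: the members, the class II pathway and the Langerhans and dendritic genes), 11 held 1 mouse far from the other 3, and chance gives about 1 in 20 such groups. Of the 11, 5 were low values of TBX20fl/fl replicate 2, the mouse that stood apart across all genes: Ciita at 0.96 against 4.24 to 4.80 in the other controls, Rfx5 at 1.43 against 3.85 to 4.32, Creb1 at 4.86 against 10.51 to 11.13, Nfya at 4.73 against 9.75 to 10.41 and Ahr at 5.68 against 12.7 to 13.82. In TBX20fl/fl replicate 3, H2-DMb2 was at 11.42 against 7.86 to 8.33. In TBX20fl/fl replicate 4, Lgmn was at 110.56 against 54.36 to 61.99. In TBX20fl/fl;K14-Cre replicate 4, H2-M2 was at 9.07 against 6.31 to 6.63 and Cd274 at 22.31 against 13.23 to 14.76. In TBX20fl/fl;K14-Cre replicate 2, Creb1 was at 12.97 against 10.94 to 11.04, and in replicate 1, Nfya was at 8.77 against 10.8 to 10.99.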

How the results depend on the processing

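No member had an adjusted p under 0.05 in any of the 19 alternatives (smallest 0.295, DESeq2's Wald test), and of all genes only that test called any (10). H2-Aa, H2-Ab1, H2-Eb1, H2-DMa, H2-DMb1, Cd207 and Cd86 kept a negative log2 fold change in all of them. The count of 3 members at an unadjusted p under 0.05 became 1 with limma on FPKM (3 settings), the replicate block, the length trend removed (with and without the block) and the muscle covariate, 2 with the bias-adjusted fit (without H2-Aa) and 4 with DESeq2 (with H2-DMb1). Without 1 mouse it ran from 1 to 5: it was 1 without any of the TBX20fl/fl;K14-Cre mice or TBX20fl/fl replicate 2 or 3, 4 without TBX20fl/fl replicate 1 and 5 without TBX20fl/fl replicate 4, where 14.1% and 13.6% of all genes were under 0.05 instead of 8.36%. The replicate block changed no call at the adjusted threshold. The median log2 fold change of the members was -0.18 with the length trend removed, and -0.67 to -0.25 without 1 mouse. On log2(FPKM + 0.1) it was -0.28, where the median of all 15969 genes was 0.18 instead of 0.03. Reversed signs were 0.12 for Epcam with limma on FPKM (all 3 settings), 0.073 and 0.079 with the length trend removed without and with the replicate block, 0.12 without TBX20fl/fl replicate 2, and -0.068 for its ratio of mean CPM. Cd74 gave 0.052 with the length trend removed and 0.046 with the block added. Ciita gave -0.14 in both length fits. Without 1 mouse, the log2 fold change ran from -0.12 to 0.28 for Ciita (below 0 without TBX20fl/fl replicate 2 and, at -0.021, without TBX20fl/fl;K14-Cre replicate 4) and from -0.17 to 0.12 for Epcam. The log2 ratio of mean FPKM then ran from -0.30 to 0.057 for Cd74 (above 0 without TBX20fl/fl;K14-Cre replicate 1 or TBX20fl/fl replicate 3), from -0.21 to 0.057 for H2-DMa (above 0 without TBX20fl/fl replicate 3) and from -0.039 to 0.43 for Ciita (below 0 without TBX20fl/fl replicate 2). The cause was not tested. What size of difference 4 mice a group and these totals could resolve was not tested.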

Other observations

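Cdh1, which encodes the E-cadherin that holds Langerhans cells to keratinocytes and is made by both, had an FPKM of 39.45 to 45.62 in TBX20fl/fl;K14-Cre skin against 40.40, 11.14, 26.35 and 34.11 in TBX20fl/fl replicates 1 to 4. Its log2 fold change was 0.47 (adjusted p = 0.498 in edgeR's test), 0.27 without TBX20fl/fl replicate 2 and 0.30 with the length trend removed. Cd83, whose product opposes the loss of class II and CD86 from the surface, was at 5.78 to 10.77 against 6.04 to 14.77, with a log2 fold change of -0.71 (adjusted p = 0.498 in edgeR's test), -0.40 without that mouse and -0.57 with the length trend removed. Among the endosomal enzymes, the log2 fold changes were -0.48 for Ctsl, -0.35 for Ifi30, -0.19 for Lgmn and 0.09 for Ctsb (adjusted p = 0.498 to 0.779 in edgeR's test), and without that mouse -0.19, -0.23, -0.17 and 0.04 in the same order. With the length trend removed they were -0.22, 0.07, -0.06 and 0.19, so Ifi30 then changed sign. Cd209a, a lectin of dermal dendritic cells, ran from an FPKM of 33.54 to 80.13 in TBX20fl/fl;K14-Cre mice against 51.36 to 83.63 in TBX20fl/fl mice, the former range covering nearly all of the latter.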
